A study of Mus musculus with 12 samples.

Results

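Six2, Eya1, Sall1, Osr1 and Gdnf are genes that nephron progenitors, the cells of the cap mesenchyme that give rise to the nephrons of the kidney, use to renew themselves and to signal to their surroundings. The 5 genes were taken as the transcripts that overlap 5 set windows of the mouse genome build mm9, on the strand with most fragments, out of 26697 loci in the deposited table. RNA was sequenced from cells of newborn mouse kidney (postnatal day 0) that had been sorted by flow cytometry as Six2-expressing. There were 4 mutant low, 2 mutant high, 4 control low and 2 control high samples, where mutant or control and low or high expression are the words of the sample titles. Which signal was high or low is not stated in them. The series title names Eed, a Polycomb group member, but no sample label gives the mutated gene, an allele or the driver that marks Six2-expressing cells. All samples, controls included, are described as cells with the R26R-tdTomato reporter. Whether separate samples stand for separate animals is not stated, so each p-value speaks of the spread among these libraries, part or all of which may be technical. The sample descriptions also number the libraries, from 4 to 11, and each of the numbers 5 to 8 occurs on 1 high and 1 low library of the same genotype. Whether libraries with the same number come from the same animal is not stated. The table gives no gene names and mm9 windows were at hand for these 5 genes only, so the targeted gene was not looked up to check the labels.

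Six2 is a homeodomain transcription factor that holds progenitors in the undifferentiated state, and its loss in mice leads to early, ectopic nephron formation. Eya1 is a phosphatase and coactivator that works with Six2 and its relatives, while Osr1 and Sall1 are zinc finger regulators, all needed for kidney development in mice. Gdnf is the ligand that progenitors secrete towards the ureteric bud, where the receptor Ret drives branching. Eed is a core subunit of Polycomb repressive complex 2, which methylates histone H3 at lysine 27 and keeps many developmental genes silent.

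Each window held the transcripts of a lone locus, and its chromosome, strand and length matched the gene of that name in GENCODE M21 of the later build GRCm38, to within 0.614% of the length. Six2 had 1 transcript on the minus strand of chromosome 17, 86083607 to 86087594. Eya1 had 4 transcripts on the minus strand of chromosome 1, 14159038 to 14300280. Sall1 had 1 transcript on the minus strand of chromosome 8, 91551142 to 91568061, and Osr1 had 1 on the plus strand of chromosome 12, 9581247 to 9588306. Gdnf had 2 transcripts on the plus strand of chromosome 15, 7761010 to 7787575. The opposite strand held 1 fragment in the Osr1 window, over all 12 libraries, and no transcript in the other windows.

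Because mammalian Polycomb complexes are best known at starts of genes rich in CG dinucleotides, the 250 bases before the most upstream RefSeq start are shown for the 3 genes that the RefSeq promoter table (GRCm38.p6) holds, 5′ to 3′ on the gene's strand, with each CG in capitals. They lie at chr17:85688255-85688504 (minus strand) for Six2, chr8:89044163-89044412 (minus strand) for Sall1 and chr15:7809798-7810047 (plus strand) for Gdnf, in GRCm38.p6.
Six2: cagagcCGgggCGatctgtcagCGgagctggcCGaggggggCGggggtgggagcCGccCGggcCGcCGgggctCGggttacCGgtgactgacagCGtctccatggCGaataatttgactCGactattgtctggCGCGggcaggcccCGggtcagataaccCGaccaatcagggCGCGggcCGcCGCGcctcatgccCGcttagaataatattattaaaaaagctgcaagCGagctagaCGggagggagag
Sall1: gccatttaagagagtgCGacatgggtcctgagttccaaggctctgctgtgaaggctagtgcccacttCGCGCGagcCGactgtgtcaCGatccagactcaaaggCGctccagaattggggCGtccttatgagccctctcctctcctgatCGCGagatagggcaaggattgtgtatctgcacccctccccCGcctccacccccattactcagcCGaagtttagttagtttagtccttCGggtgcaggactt
Gdnf: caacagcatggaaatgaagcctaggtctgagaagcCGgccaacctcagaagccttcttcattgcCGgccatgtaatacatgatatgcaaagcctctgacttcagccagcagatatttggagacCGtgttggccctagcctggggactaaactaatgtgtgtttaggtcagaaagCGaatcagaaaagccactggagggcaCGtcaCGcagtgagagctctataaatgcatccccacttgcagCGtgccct
The Six2 stretch held 26 CG dinucleotides, the Sall1 stretch 13 and the Gdnf stretch 7, against a median of 6 over 32851 promoters. As many or more were found in 9.59% of promoters for Six2, 31.5% for Sall1 and 46.3% for Gdnf, and 92.1% held at least 1. The letters TATAAA, searched on both strands, lay 31 bases before the most upstream start of Gdnf, were not found in the other 2 stretches, and were present in 12.4% of all promoters. The promoter table lists 1 start for Six2, 3 for Sall1 and 2 for Gdnf, and the further starts were not examined. Whether the most upstream start is that of the transcripts counted was not checked. No chromatin was measured here, so these are descriptions of sequence only.

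Libraries held between 4549011 and 12365078 fragments, and the control high libraries were the smallest group, with 6249263 and 4549011. Chromosome M took 4.51% and 10.3% of the fragments of those 2 libraries, and 0.494% to 1.96% elsewhere. The 100 most abundant loci took 29.1% and 34.4% of their fragments, and 18.8% to 22.1% elsewhere. Levels are given as CPM, fragments scaled to a common library size with TMM factors, and 1 fragment was worth 0.0812 to 0.284 CPM. Levels of different genes are not compared with each other, since transcript lengths were not used. Fold changes, their standard errors and adjusted p-values come from edgeR's quasi-likelihood test over 13749 loci with Benjamini-Hochberg adjustment, and a gene was called at an adjusted p under 0.05. Intervals on fold changes are 95% intervals. In sorted pools of cells, fewer cells of a type and less RNA per cell cannot be told apart.

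The comparison of mutant with control cells of the low population asked whether progenitor genes depend on the mutated gene where they are most abundant. Six2 fell to 46.6% of its control level, and Eya1 and Osr1 stood at 47.6% and 32.4%, whereas Sall1 and Gdnf were within 1.06-fold of control. Of the 5 genes, 1 was called lower and 0 higher, and their median log2 fold change was -1.07. Over all loci tested, 3.21% were called lower, 4.82% were called higher, and the median log2 fold change was -0.065.

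Six2 had 693, 743, 775 and 960 CPM in mutant low libraries, against 1967, 1587, 1359.6 and 1897 CPM in control low libraries. Every mutant low library lay below every control low library. The groups averaged 793 ± 116 and 1703 ± 282 CPM (SD, n = 4 each). The log2 fold change was -1.10, with an SE of 0.309 and an adjusted p of 0.0397 in edgeR. Among all loci tested, 6.69% were lower in mutant low cells with ranges that did not overlap. The call was close to the threshold in the fit of all 4 groups. With the 2 low groups alone the log2 fold change was -1.07 (edgeR adjusted p = 0.00666). Of 26 alternative settings, 14 kept the call. It was kept in 3 of the 12 fits that left out a library, those without control low replicate 3 or either control high library, while the log2 fold change stayed between -1.21 and -1.02. The 4 low libraries with description numbers up to 7 (mutant low replicates 1 and 2, control low replicates 1 and 2) gave -1.27 (edgeR adjusted p = 0.0123), and the 4 above 7 gave -0.883 (edgeR adjusted p = 0.0982).

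Eya1, the coactivator of Six2, had 369, 377, 352 and 397 CPM in mutant low libraries, against 937, 733, 621 and 847 CPM in control low libraries. These ranges did not overlap either, and the mutant low libraries were close together (374 ± 18.8 CPM) while the control low libraries were more spread (785 ± 138 CPM, SD, n = 4 each). The log2 fold change was -1.07 (SE 0.399), and it did not pass the test in the fit of all 4 groups (edgeR adjusted p = 0.133). That fit shares its estimate of spread with the control high libraries, where Eya1 differed 9.07-fold. Of 26 alternative settings, 4 called Eya1 in low cells, with log2 fold changes from -1.18 to -0.86 over all of them. DESeq2 (adjusted p = 0.0851) and limma-voom (adjusted p = 0.061) did not call it. With the 2 low groups alone the log2 fold change was -1.04 and was called (edgeR adjusted p = 0.00561), as it was without control high replicate 1 (adjusted p = 0.00538) or replicate 2 (adjusted p = 0.00469).

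Osr1, a zinc finger regulator of the earliest kidney mesenchyme, was scarce, with 34, 32, 12 and 36 fragments in mutant low libraries and 172, 74, 33 and 77 fragments in control low libraries. Its levels were 3.93, 4.88, 1.33 and 2.92 CPM in mutant low cells, against 20.1, 10.1, 3.57 and 6.32 CPM in control low cells. The ranges overlapped, because control low replicate 3 stood below mutant low replicates 1 and 2. The log2 fold change of -1.62 (SE 0.493) missed the threshold (edgeR adjusted p = 0.0592). It was -1.03 without control low replicate 1, the highest library, and -1.90 and called without control low replicate 3 (edgeR adjusted p = 0.025). DESeq2 also called it (adjusted p = 0.03), whereas limma-voom (adjusted p = 0.107) and edgeR on the 2 low groups alone (adjusted p = 0.133) did not. Of 26 alternative settings, 5 called it. The log2 fold change was smallest, at -0.622, in the 8 libraries that share a description number, fitted without a block.

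Sall1 had 331, 336, 320.3 and 349 CPM in mutant low libraries, against 329, 307, 396 and 359 CPM in control low libraries. The mutant low values lay within the range of the control low values. The log2 fold change was -0.058 (SE 0.178, edgeR adjusted p = 0.891), with an interval of -0.438 to 0.322. Gdnf, the ligand, had 28.2, 26.2, 32.9 and 30.0 CPM in mutant low libraries, against 21.6, 28.1, 32.3 and 28.6 CPM in control low libraries, and these ranges overlapped as well. Its log2 fold change was 0.0837 (SE 0.249, edgeR adjusted p = 0.888), with an interval of -0.449 to 0.616. At these intervals, a fall of Sall1 or Gdnf as large as that estimated for Six2 lay outside them, whereas changes down to their bounds did not.

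The control low libraries did not vary alike for all genes. Replicate 3 was the lowest of the 4 for Six2, Eya1 and Osr1 and the highest for Sall1 and Gdnf. Of the 5 genes, Osr1 was the most variable in low cells, with a coefficient of variation of 46.4% in mutant and 72.3% in control libraries. For Six2 these were 14.7% and 16.6%, and for Sall1 3.51% and 11.1%.

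**Figure D1:**
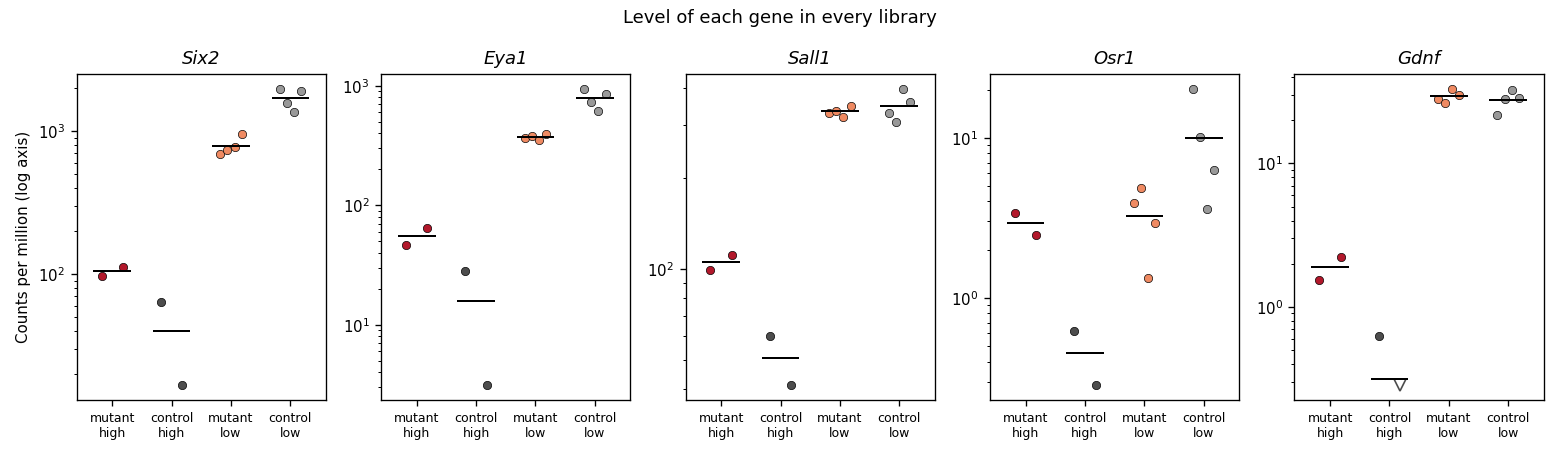
Level of each gene in every library, in CPM on a log axis whose range differs between panels; circles are libraries, black lines are group means, and the open triangle marks the control high library with no Gdnf fragment, drawn at the value of 1 fragment. Six2 and Eya1 of mutant low libraries lie below all control low libraries, Sall1 and Gdnf of these groups overlap, and in high cells every mutant library lies above both control libraries for all 5 genes.

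Ratios between the fragments of 2 genes of the same library need no scaling between libraries, and were compared between mutant and control low cells for all 10 pairs, a test added after the levels had been seen. Six2 fragments were 2.10, 2.21, 2.42 and 2.75 times those of Sall1 in mutant low libraries, against 5.98, 5.16, 3.43 and 5.29 times in control low libraries. The ratio of Six2 to Gdnf was 24.6, 28.3, 23.6 and 32.0 in mutant low libraries, against 90.9, 56.4, 42.1 and 66.4 in control low libraries. In both ratios the groups were apart, and the same held for Eya1 over Sall1 and Eya1 over Gdnf. The log2 differences, mutant minus control, were -1.05, -1.19, -1.0 and -1.15 in the order given, each with an exact two-sided permutation p of 0.0286, the smallest that 4 against 4 samples can give, and 0.0715 adjusted over the 10 pairs. Because of that limit no pair could pass after adjustment unless more pairs had been as far apart. The 10 ratios are made from the same 5 genes and libraries, so these pairs do not bear on each other independently. They restate the levels of Six2 and Eya1 given above relative to those of Sall1 and Gdnf.

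Six2 and Eya1 kept nearly the same ratio to each other. There were 1.88, 1.97, 2.21 and 2.42 Six2 fragments for each Eya1 fragment in mutant low libraries, against 2.10, 2.17, 2.19 and 2.24 in control low libraries. The difference was -0.0432 on the log2 scale (exact permutation p = 0.657). The ratio of Sall1 to Gdnf likewise overlapped between the groups, with a difference of -0.145 (exact permutation p = 0.343). The other 4 pairs all contain Osr1, and each of them overlapped.

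**Figure D2:**
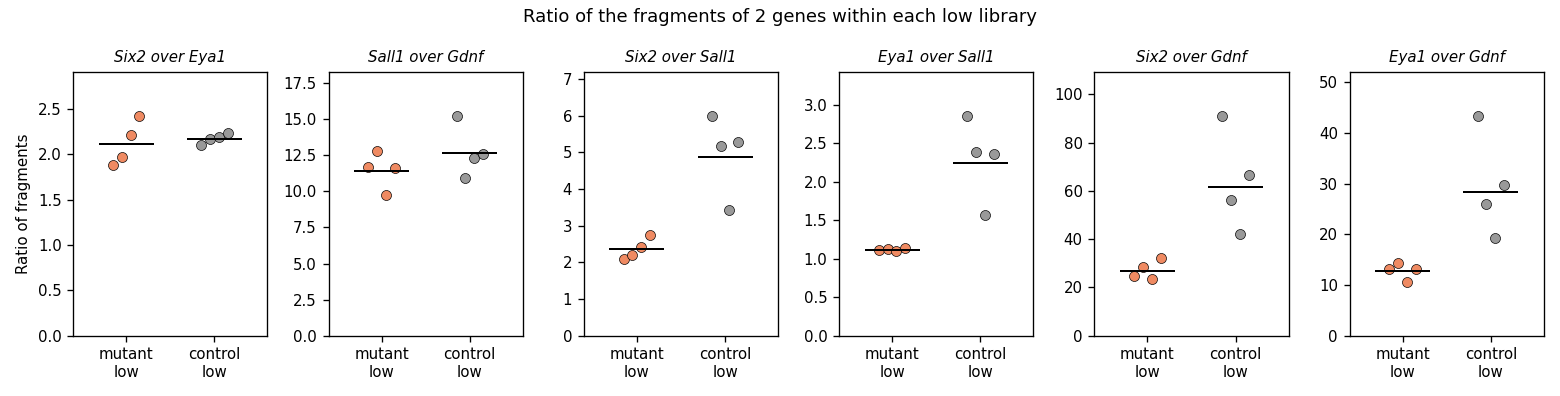
Ratio of the fragments of 2 genes within each low library, on linear axes that start at 0; circles are libraries and black lines are geometric means. Six2 over Eya1 and Sall1 over Gdnf overlap between mutant low and control low libraries, whereas Six2 or Eya1 over Sall1 or Gdnf is lower in every mutant low library.

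The comparison of mutant with control cells was also made in the high population. Here all 5 genes stood above control, by 2.07-fold to 6.02-fold, and Six2, Eya1, Sall1 and Gdnf were called higher. For Six2, Eya1 and Osr1 this was the reverse of the direction in low cells, where only Six2 was called. Sall1 and Gdnf had been near control in low cells, at log2 fold changes of -0.058 and 0.0837. Of the 5 genes, 4 were called higher and 0 lower, with a median log2 fold change of 1.79, while 16.3% of all loci were called higher, 11.2% were called lower, and their median log2 fold change was 0.077. All 5 had mutant libraries above both control libraries, as did 35.9% of all loci. This comparison rests on 2 samples a group.

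Six2 had 97.2 and 113 CPM in mutant high libraries, against 63.4 and 16.7 CPM in control high libraries (log2 fold change 1.38, SE 0.446, edgeR adjusted p = 0.0331). Eya1 had 46.6 and 64.2 CPM in mutant high libraries, against 28.3 and 3.12 CPM in control high libraries (log2 fold change 1.79, SE 0.594, edgeR adjusted p = 0.0396). Mutant libraries were close together for both genes, and control high replicate 2, the smallest library with the most chromosome M, was far below replicate 1. Without it the log2 fold changes were 0.711 for Six2 (edgeR adjusted p = 0.217) and 0.949 for Eya1 (edgeR adjusted p = 0.0958). The Six2 call was also lost without mutant high replicate 1 (adjusted p = 0.0737) or replicate 2 (adjusted p = 0.14), and the Eya1 call was kept in 2 of the 12 fits that left out a library, those without control high replicate 1 or control low replicate 1.

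Sall1 had 99.5 and 111 CPM in mutant high libraries, against 60.1 and 41.1 CPM in control high libraries. It had the smallest fold of the 5 and the smallest adjusted p (log2 fold change 1.05, SE 0.257, edgeR adjusted p = 0.00808). This call was kept in 11 of the 12 fits that left out a library and was lost without control high replicate 2 (log2 fold change 0.788, edgeR adjusted p = 0.0938). Sall1 passed the test in high and not in low cells, a difference that the interaction test below also called.

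Gdnf and Osr1 were close to the limit of detection in control high cells. Gdnf had 16 and 18 fragments in mutant high libraries (1.55 and 2.22 CPM), against 3 and 0 fragments in control high libraries. The count of 0 in control high replicate 2 allows a level of up to 0.851 CPM, from 3 fragments. Summed over libraries, the ratio of mutant high to control high was 5.11, with a counting interval of 1.61 to 26.0, and the fitted log2 fold change was 2.35 (SE 0.652, edgeR adjusted p = 0.0158). The Gdnf call was lost without control high replicate 2 (edgeR adjusted p = 0.147) or mutant high replicate 2 (edgeR adjusted p = 0.0706). Osr1 had 35 and 20 fragments in mutant high libraries (3.38 and 2.46 CPM), against 3 and 1 fragments in control high libraries (0.624 and 0.284 CPM). Its ratio of 6.20 had a counting interval of 2.29 to 23.6, and the log2 fold change of 2.59 (SE 1.01) did not pass the test (edgeR adjusted p = 0.0696), although DESeq2 called it (adjusted p = 0.0465). Exact binomial intervals of this kind, and the limit set by a count of 0, cover counting error only.

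Of the high libraries, those with description numbers up to 7 were both mutant high libraries and control high replicate 1, and only control high replicate 2 had a number above 7, so the comparison within the higher numbers could not be made. With a term for numbers above 7 the log2 fold changes were 1.32 for Six2, 1.69 for Eya1, 1.05 for Sall1 and 2.42 for Gdnf, all called. Osr1, not called without that term, stood at 2.14 and was called with it (edgeR adjusted p = 0.0412). The comparison within the lower numbers is that without control high replicate 2, where the log2 fold changes of all 5 genes were smaller. They were 0.711 for Six2, 0.949 for Eya1, 0.788 for Sall1, 2.20 for Osr1 and 1.54 for Gdnf.

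Levels in CPM were lower in high than in low cells for all 5 genes in controls and for 4 in mutants, where Osr1 did not pass the test. The word high of the titles therefore did not follow the Six2 transcript. CPM are relative to each library, so amounts of RNA were not measured. In control cells all 5 genes were called lower in the high population, against 27.0% of all loci, with a median log2 fold change of -5.40 against -0.13 over all loci. In mutant cells 4 of the 5 were called lower, against 13.2% of all loci, with a median of -2.75 against -0.033. The comparisons share their high and low libraries with those above.

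In control cells, Six2 averaged 40.1 ± 33.0 CPM in high (n = 2) and 1703 ± 282 CPM in low libraries (SD, n = 4), or 2.37% of the low level (log2 fold change -5.40, SE 0.507, edgeR adjusted p = 8.3e-07). Eya1 stood at 2.04% of its low level (log2 fold change -5.62, SE 0.667, edgeR adjusted p = 1.19e-05). Sall1 kept more, at 50.6 ± 13.4 CPM in high and 348 ± 38.4 CPM in low libraries, or 14.6% (log2 fold change -2.78, SE 0.254, edgeR adjusted p = 6.63e-07). Gdnf had 3 fragments in both high libraries together and 1039 in the 4 low libraries, which is 77.3-fold lower with a counting interval of 26.4 to 375 (edgeR adjusted p = 4.11e-07). That interval takes in the 42.2-fold of Six2 and the 49-fold of Eya1, so these 3 genes were not put in order. Osr1 was 19.9-fold lower by fragments, with a counting interval of 7.69 to 73.3 (edgeR adjusted p = 0.00107). These 5 calls were kept under all 25 alternative settings, but their size rests on which control high library is used. Without replicate 1 the log2 fold change was -6.69 for Six2, -7.99 for Eya1, -5.10 for Osr1 and -10.9 for Gdnf, the last against a lone library with no fragment, and without replicate 2 it was -4.69, -4.74, -3.92 and -5.39 for the same genes. Without control low replicate 1, the highest of its group for Osr1, that gene stood at -3.76. Sall1 stayed between -3.10 and -2.48. The larger share of chromosome M and of the 100 most abundant loci in both control high libraries goes with these differences. With chromosome M left out 13741 loci were tested in place of 13749, and all 5 calls were kept. That setting removes few loci, and what else the share of chromosome M goes with was not tested. The part of the most abundant loci was not tested either.

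In mutant cells the gap was narrower. Six2 averaged 105 ± 11.2 CPM in high (n = 2) and 793 ± 116 CPM in low libraries (SD, n = 4), or 13.3% of the low level (log2 fold change -2.91, SE 0.438, edgeR adjusted p = 0.000143). Eya1 stood at 14.8% (log2 fold change -2.75, edgeR adjusted p = 0.00211), Sall1 at 31.4% (log2 fold change -1.67, edgeR adjusted p = 8.48e-05) and Gdnf at 6.41% of the low level (log2 fold change -3.96, edgeR adjusted p = 3.72e-06). Osr1 averaged 2.92 ± 0.651 CPM in the high libraries of mutants and 3.26 ± 1.51 CPM in their low libraries, and these ranges overlapped (log2 fold change -0.137, SE 0.621, edgeR adjusted p = 0.889, interval -1.47 to 1.19).

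The order of the 4 groups was the same for Six2, Eya1 and Osr1, with control high lowest, then mutant high, mutant low and control low. For Osr1 the middle groups did not differ beyond their spread, and mutant low and control low overlapped. For Sall1 and Gdnf control high was lowest and mutant high next, and the 2 low groups could not be put in order.

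The difference between the mutant effects in high and in low cells was tested directly, as an interaction in the same fit. It was positive for all 5 genes and called for 4, against 7.29% of all loci called more positive and 3.05% more negative. Six2, which was lower in mutant low and higher in mutant high cells, differed by 2.49 on the log2 scale (SE 0.545, edgeR adjusted p = 0.011). Eya1 differed by 2.86 (SE 0.718, edgeR adjusted p = 0.0237), Osr1 by 4.21 (SE 1.10, edgeR adjusted p = 0.0268) and Sall1 by 1.11 (SE 0.312, edgeR adjusted p = 0.0368). Gdnf, at 2.27 (SE 0.706), missed the threshold (edgeR adjusted p = 0.0547). Six2 kept its call in 11 of the 12 fits that left out a library, with an adjusted p of 0.0537 without mutant high replicate 2, and Eya1 kept its call in 10, all but those without mutant high replicate 2 or mutant low replicate 1. Sall1 kept its call in 4 of the 12 (without control low replicate 1 or 2, control high replicate 1 or mutant low replicate 3), and Osr1 in 8, losing it without either control high or either mutant high library. In the 8 libraries that share a description number, a block on that number kept the calls of Six2 (2.68, edgeR adjusted p = 0.0244) and Osr1 (3.27, edgeR adjusted p = 0.0471) and lost those of Eya1 (3.14, edgeR adjusted p = 0.138) and Sall1 (1.13, edgeR adjusted p = 0.127). The same 8 libraries without the block gave none of the 5 calls, with edgeR adjusted p of 0.0643 for Six2, 0.174 for Eya1, 0.108 for Sall1, 0.068 for Osr1 and 0.0926 for Gdnf. With each transcript of the table as a feature in place of sums all 4 calls were lost as well (edgeR adjusted p from 0.0665 to 0.128). Six2, Sall1 and Osr1 have 1 transcript each, so their own counts did not change in that setting. With a term for description numbers above 7 all 5 were called, Gdnf at 2.33 (edgeR adjusted p = 0.0424). Chromosome M took its largest shares in the control high libraries. With it left out 13741 loci were tested in place of 13749, and the 4 calls were kept. That setting removes few loci, and what else the share of chromosome M goes with was not tested. By construction this difference is also the high against low change in mutants minus that in controls. The narrower gap in mutant cells and this test are therefore the same quantity, from the same 12 libraries, and do not bear on each other independently.

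**Figure D3:**
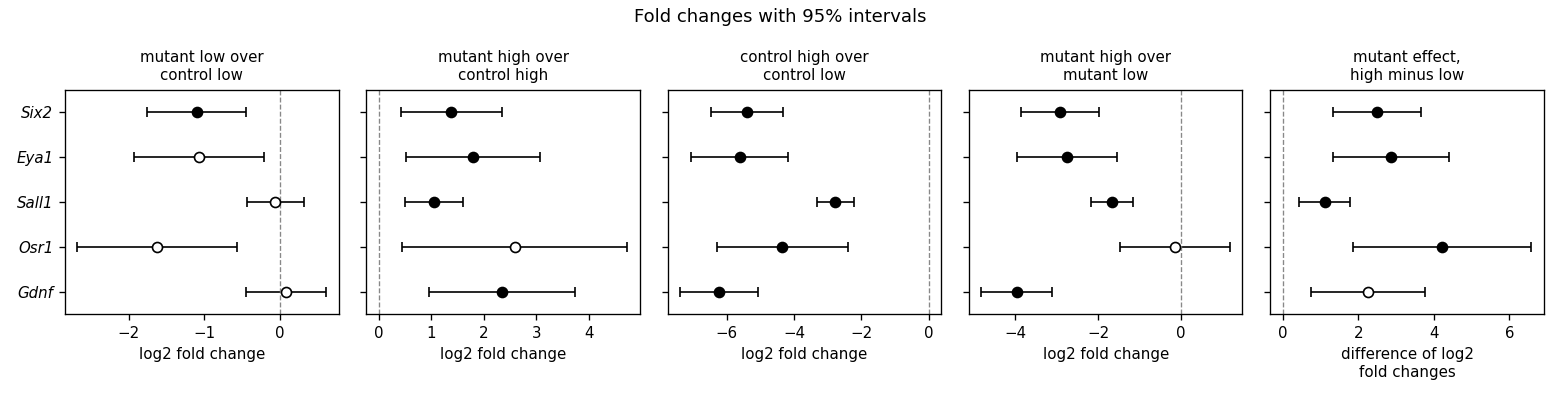
Log2 fold changes of the 5 genes in the 4 comparisons and, at the right, the difference of the mutant effects; bars are 95% intervals from the edgeR fit, filled circles have an adjusted p under 0.05, and the horizontal ranges differ between panels. Six2, Eya1 and Osr1 lie below 0 in low cells and above 0 in high cells, and Sall1 and Gdnf lie near 0 in low cells only.

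The division of fragments between transcripts mattered for Eya1 alone. The most abundant of its 4 transcripts took 95.5% to 100% of the fragments in 11 libraries, but 59.2% in mutant low replicate 1, where a longer transcript took 1270.7 of 3194 fragments. The sum over transcripts in that library, 369 CPM, was close to those of the other mutant low libraries, which were 352 to 397 CPM. Gdnf's 2 transcripts have the same start and end, and nearly all fragments were assigned to 1 of them.

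The surroundings of the genes were sparse. Within 200 kb there were no other loci around Eya1 and Sall1, and 1 around Osr1 that was too low to be tested. The plus-strand locus on chromosome 17 from 86012947 to 86025531, 58.1 kb downstream of Six2, had 264 ± 119.8 CPM in mutant low and 367 ± 68.2 CPM in control low cells (SD, n = 4 each), and this difference did not pass the test (log2 fold change -0.476, edgeR adjusted p = 0.458). In high cells it was called higher in mutants, at 38.8 ± 3.88 CPM against 11.4 ± 8.05 CPM in controls (SD, n = 2 each, log2 fold change 1.75, edgeR adjusted p = 0.018). A minus-strand locus that overlaps it, 86001792 to 86018751, had 6.47 ± 0.276 CPM in mutant high and 0.104 ± 0.147 CPM in control high cells, and 8.15 ± 2.08 CPM in mutant low and 6.90 ± 2.56 CPM in control low cells. It was called higher in mutant high cells (log2 fold change 5.6, edgeR adjusted p = 0.000363), though its control high level was close to the limit of detection. Without information on strand, reads of these overlapping loci cannot be told apart. Near Gdnf, the locus on chromosome 15 from 7823054 to 8049209, 35.5 kb downstream, did not pass the test between mutant and control in low cells (log2 fold change 0.271, edgeR adjusted p = 0.632) or in high cells (log2 fold change 0.738, edgeR adjusted p = 0.184).

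Likeness of pattern was measured as the distance between the 4 group means of log2 CPM, each centred on its mean, over 10054 loci with a mean of at least 5 CPM. No such locus was nearer to Eya1 than Six2 was (distance 0.625), and 6 were nearer to Six2 than Eya1 was. The nearest to Six2 were on chromosome 11, 102465744 to 102469372 (distance 0.455), and on chromosome 10, 87981027 to 88067897 (distance 0.469), and these were also the nearest to Eya1. The locus on chromosome 11 had 68.5 CPM in mutant high, 21.6 in control high, 556 in mutant low and 792 in control low cells. Nearest to Sall1 were loci on chromosome 16, 4711317 to 4719059 (distance 0.0983), and on chromosome 10, 79843099 to 79850396 (distance 0.15). Nearest to Osr1 were loci on chromosome 7, 109590208 to 109618285 (distance 0.225), and on chromosome 5, 36359829 to 36740788 (distance 0.31), and nearest to Gdnf were loci on chromosome 4, 133746718 to 133758919 (distance 0.664), and on chromosome 2, 164937006 to 165060237 (distance 0.793). These are descriptions over 4 group means. The other genes of the self-renewal pathway were not analysed here, because the table gives no names and mm9 windows were at hand for these 5 genes only.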

How the data were processed

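The authors deposited estimated counts of fragments, or expected counts, per transcript, not normalized, for all 12 samples. The file's title calls them raw fragments of CuffDiff2, and Bowtie2, HTSeq, DESeq2 and mm9 are listed, with no role or version, per the submitters' processing notes. The use of strand and of fragments with several alignments is not given in the sources used here, and 303 of 55418 rows lacked a position and were empty. Transcripts overlapping on a strand were summed to 26697 loci and rounded (99.6% to 99.9% of sums were whole within 0.01), because fragments were divided between isoforms. Positions are printed as deposited. The tests planned on counts per gene ran on these sums.

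All 12 samples entered 1 fit of 4 groups in edgeR 4.0.16 (R 4.3.3) with TMM, filterByExpr, robust quasi-likelihood dispersions and no covariate, and all 5 genes were among the 13749 loci kept. The standard error is the log2 fold change divided by the root of its F statistic. Alternatives were RLE, other filters, DESeq2 1.42.0, limma-voom (limma 3.58.1), leaving out each sample, 2 replicate blocks, a term for description numbers above 7, subsets, transcripts in place of sums, both strands, and chromosome M left out. All 5 genes were named with every value, and other loci were named by position if within 200 kb, or if among the 2 nearest in pattern to a gene. The genes, windows and lists were chosen with earlier results of these data known.

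Neither the replicate numbers of the titles nor the numbers of the descriptions are said to mark a shared animal, and neither was taken to pair samples. High and low libraries with the same description number, which may come from the same animal, correlated by -0.0836 to 0.225 in their deviations from the group means. Each high group holds 2 libraries, whose deviations from their mean mirror each other, so these correlations cannot decide whether animals were shared. If same-numbered libraries do share animals, high and low libraries are not independent.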

Additional observations from a re-analysis of the deposited data

Results flagged for a closer look

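The interaction test of edgeR called a different mutant effect in high than in low cells for 4 of the 5 genes, against 7.29% of all loci called more positive and 3.05% more negative. The difference, high minus low, was 2.49 for Six2, 2.86 for Eya1, 1.11 for Sall1 and 4.21 for Osr1 on the log2 scale. Six2 was called lower in mutant low cells (edgeR adjusted p = 0.0397) and higher in mutant high cells (0.0331). Eya1 was called in high cells (0.0396) and missed the threshold in low cells (0.133), and Osr1 in neither (0.0696 in high and 0.0592 in low cells, where its ranges overlapped). Sall1 was called in high cells (0.00808) and had a log2 fold change of -0.058 in low cells. In the 12 fits that left out a library the call of the difference was kept in 11 for Six2, 10 for Eya1, 8 for Osr1 and 4 for Sall1, and with transcripts in place of sums all 4 were lost. In the setting with transcripts the counts of Six2, Sall1 and Osr1, with 1 transcript each, were the same as in the sums. The control high libraries, on which all 4 differences rest, held 364 Six2, 147 Eya1, 434 Sall1 and 4 Osr1 fragments between them, and gave 29.1% and 34.4% of their fragments to their 100 most abundant loci, against 18.8% to 22.1% in the other libraries. Their part in the result beyond leaving each out in turn was not tested. In the 10 groups of 4 low libraries, 1 for each gene and genotype, no library stood apart from the others by the gap criterion used for groups of this size. It did not flag Osr1 in control low replicate 1, at 20.1 CPM against 10.1 CPM in replicate 2, the next highest. The check did not cover the high groups of 2 libraries, where Eya1 differed 9.07-fold between the control libraries.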

How the results depend on the processing

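Values here are log2 fold changes unless named as counts of loci called. For the 5 genes in the 5 tests, 532 of 620 alternative values kept direction and side of the threshold, 64 lost a call, 17 gained one and 7 changed sign. The 532 include results never called, and settings that hardly change the counts of these genes, so they are not a measure of robustness. In low cells Six2 was called in 14 of 26 settings, Eya1 in 4 of 26 and Osr1 in 5 of 26. Eya1 in high cells was called in 10 of 24. The lower levels in high cells kept every call under all alternatives run, for 5 genes in control and for Six2, Eya1, Sall1 and Gdnf in mutant cells. Depth limits Osr1 and Gdnf in control high cells (4 and 3 fragments). Except where samples or loci were fewer by construction, the cause of a change was not tested.

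With no filter, Eya1 in high cells (1.82) and the difference of effects for Sall1 (1.11) lost their calls. DESeq2 called Osr1 in low (-1.59) and high cells (2.60). With limma-voom, the difference for Osr1 lost its call (3.86) and its high against low value in mutants was 0.0179. With the 2 compared groups alone, Eya1 was called in low cells (-1.04) and Osr1 in high cells (2.59), and Six2 (1.40), Eya1 (1.80) and Gdnf (2.35) lost their calls in high cells. Among description numbers up to 7, Eya1 (-1.13) and Osr1 (-1.75) were called in low cells, Sall1 stood at 0.101 and 726 loci were called, against 1104 in the fit of all samples, and above 7 Six2 lost its call (-0.883). A term for numbers above 7 gave calls to Osr1 in low (-1.50) and high cells (2.14) and to the difference for Gdnf (2.33).

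With the most abundant transcript in place of sums, calls were lost for Six2 in low cells (-1.06), for Six2 (1.41), Eya1 (1.79) and Gdnf (2.43) in high cells, and for the difference at Six2 (2.46), Eya1 (2.97), Sall1 (1.09) and Osr1 (4.22). Six2, Sall1 and Osr1 have 1 transcript each, so their own counts were the same as in the sums. Every transcript of the data was a feature in that setting, and 21343 features were tested, against 13749 loci. That setting called 427 features in low cells, 2012 in high cells, 2713 between mutant high and low cells and 544 for the difference, against 1104, 3780, 4427 and 1422 loci.

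The title number as a replicate block called Osr1 in low (-1.49) and high cells (2.62), changed no other call of the 5 genes, and gave 1331 loci in low and 4454 in high cells. Same-numbered low libraries correlated by 0.0671 to 0.467 in their deviations, and 2 of 8 correlated best with their own number. The description number as a replicate block, in the 8 libraries that share one, lost the difference for Eya1 (3.14) and Sall1 (1.13) and called 942 loci for it. The same 8 libraries without the block, added after seeing the data, lost Six2 in low cells (-1.04), Six2 (1.38) and Eya1 (1.79) in high cells, and the difference for Six2 (2.42), Eya1 (2.65), Sall1 (1.12) and Osr1 (3.20). They called Osr1 in high cells (2.58), put Gdnf at -0.152 in low cells, and called 257 loci in low cells and 865 for the difference.

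Leaving out each library moved the value in low cells from -1.21 to -1.02 for Six2, from -1.16 to -0.975 for Eya1, from -0.114 to 0.0245 for Sall1, from -1.90 to -1.03 for Osr1 and from -0.0182 to 0.181 for Gdnf. In high cells the ranges were 0.711 to 2.69 for Six2, 0.949 to 4.18 for Eya1, 0.788 to 1.39 for Sall1, 2.20 to 3.34 for Osr1 and 1.54 to 7.04 for Gdnf. For the difference of effects they were 1.78 to 3.76 for Six2, 1.99 to 5.22 for Eya1, 0.811 to 1.41 for Sall1, 3.62 to 4.94 for Osr1 and 1.42 to 6.92 for Gdnf. Between control high and low cells they were -6.69 to -4.69 for Six2, -7.99 to -4.74 for Eya1, -3.10 to -2.48 for Sall1, -5.10 to -3.76 for Osr1 and -10.9 to -5.39 for Gdnf, with every call kept. Osr1 between mutant high and low cells ran from -0.413 to 0.104, and was 0.0552 without mutant high replicate 2. The loci called ran from 1996 to 4010 in high cells, from 2883 to 4460 between mutant high and low cells and from 572 to 1482 for the difference. Where a high group kept 1 library, that library was assumed to vary like the other groups.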
